A study of Homo sapiens with 12 samples.

Results

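The genes described here encode the machinery that licenses origins of DNA replication, unwinds them and copies DNA at the fork. They are 56 genes, listed by symbol for these roles, with earlier results of these data known, out of 60612 named rows in the table of read counts per gene. Each symbol was found once, and all 56 were tested in every comparison. RNA was sequenced from ZR-75-1 cells, a human breast cancer line that expresses the oestrogen receptor, which had received either a control guide RNA (sgControl) or a CRISPR–Cas9 knockout of *RB1*. Cells of both genotypes were kept for 5 days in DMSO, the solvent (called untreated here), or in 500 nM abemaciclib, which blocks CDK4 and CDK6, and each of the 4 groups had 3 replicates. The knockout lines of the study were expanded from single sorted cells, so that a difference between genotypes and a difference between clones cannot be told apart. The study describes its cell line RNA-seq replicates as separate cultures, all of them grown from one line per genotype here as far as the labels tell, so the p-values measure the spread between such cultures and not between clones.

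In G1 phase, the origin recognition complex (ORC), *CDC6* and *CDT1* load the *MCM2* to *MCM7* helicase onto origins in an inactive form, which is called licensing. At the start of S phase, the kinase *CDC7* with its partner *DBF4*, together with *CDC45*, the GINS proteins, *TICRR*, *TOPBP1* and *MCM10*, turns the loaded helicase on, and polymerases, the *PCNA* clamp and maturation enzymes then copy both strands. Many of these genes are known targets of E2F transcription factors, which Rb, the product of *RB1*, holds in check until CDK4 and CDK6 phosphorylate it.

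Libraries held 39907318 to 81636393 counts. Values below are normalised counts, that is, counts divided by the DESeq2 size factor of the library. *RB1* had 2252 to 4825 normalised counts in the 6 sgControl libraries and 39.6 to 63.5 in the 6 knockout libraries. All 8 luminal epithelial markers examined, *ESR1* among them, had at least 6157 in every library. Among 6 basal or mesenchymal and 6 blood, endothelial or fibroblast markers, 9 stayed under 10 in every library, while *CDH2* ranged from 610.2 to 1677, *COL1A1* from 1878.5 to 3031 and *ZEB1* from 2.2 to 23.2. The sgControl libraries in DMSO differed most among themselves, with a chi-square of 95.26 per gene between replicates 1 and 3 against 3.32 for the closest pair of any group. This value was taken on raw counts and also grows with depth, and replicate 3 of that group was the deepest library, at 81636393 counts. Mitochondrial genes held 3.49% ± 0.60 (SD, n = 3) of counts in sgControl cells in DMSO and 7.73% ± 0.70 in abemaciclib, against 3.98% ± 0.18 and 6.13% ± 1.09 in *RB1*-knockout cells. This share moved with the drug in both genotypes, and its part in the results below was not tested.

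In sgControl cells, most of these genes were lower after abemaciclib. Of the 56 genes, 51 fell, *GINS4* rose, and *ORC2*, *ORC4*, *POLE3* and *RFC1* did not pass the test. The fall was at least 2-fold for 38 of them, and the median log2 fold change was -1.17, against 0.01 over all 23512 genes tested. A call of lower was made for 23.9% of all genes tested and a call of higher for 24.1% (DESeq2, two-sided Wald test, adjusted p under 0.05). Together the 56 genes held 0.434% ± 0.015 (SD, n = 3) of all counts in DMSO and 0.180% ± 0.002 in abemaciclib. With size factors from total counts instead, the split over all genes went from 5657 higher and 5615 lower to 4529 higher and 6774 lower, and 52 of the 56 genes fell, *ORC2* being added. In such bulk samples, fewer replicating cells and less of these RNAs per cell cannot be told apart.

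In *RB1*-knockout cells, the same genes moved little. Their share of counts was 0.444% ± 0.003 (SD, n = 3) in DMSO and 0.405% ± 0.007 in abemaciclib, and the median log2 fold change was -0.10. Of the 56 genes, 21 fell, *RFC1*, *ASF1B* and *FEN1* rose, and 32 did not pass. None changed by 2-fold or more. Over all 18506 genes tested, 15.1% were called lower and 15.0% higher. The difference between the genotypes in their response, the interaction, passed for 50 genes. It was higher in knockout cells, meaning a smaller fall or a rise, for 49 genes, where 21.0% of all genes tested were called, and lower for *GINS4* alone, where 20.2% were. The median interaction over the 56 genes was 1.11 on the log2 scale, against 0.03 over all genes tested. With total-count size factors, 5466 genes were called higher and 3099 lower over the whole table, against 4415 and 4250, and 49 of the 56 were still higher.

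**Figure D1:**
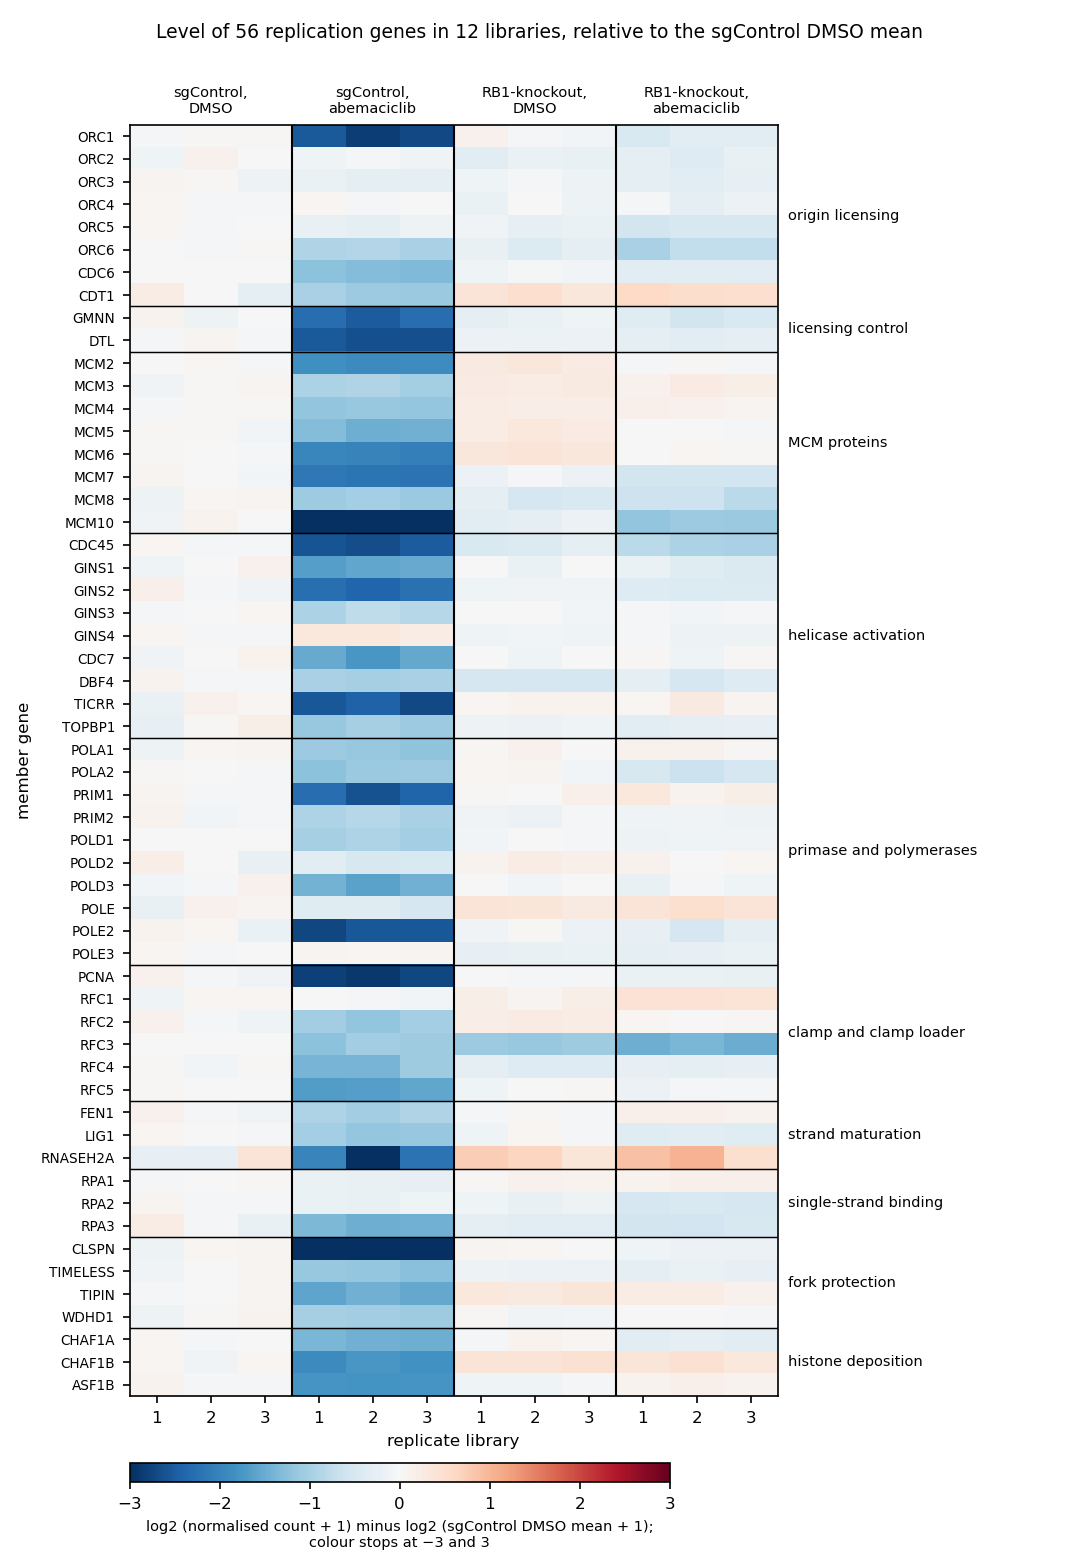
Each row is one of the 56 replication genes, grouped by role, and each column one of the 12 libraries, with colour giving the log2 of the normalised count plus 1 relative to the mean of the sgControl libraries in DMSO. The 3 sgControl libraries in abemaciclib are blue for nearly every row, except *ORC2* to *ORC5*, *GINS4*, *POLE3*, *RFC1* and a few other pale rows, while the 3 knockout libraries in abemaciclib stay near the knockout libraries in DMSO.

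Origin licensing was split within a single complex. Of the 6 ORC genes and the loaders *CDC6* and *CDT1*, 6 fell in sgControl cells and 2 did not pass. *ORC1* (chr1:52372829-52404423, GRCh38), the largest ORC subunit and one whose level is known to vary through the cell cycle, had 889, 955 and 951 normalised counts in DMSO and 161, 131 and 143 in abemaciclib. In knockout cells it had 1025, 912 and 876 in DMSO and 683, 731 and 734 in abemaciclib. No treated library overlapped an untreated one in either genotype, yet the fall was far larger in sgControl cells (log2 fold change -2.69, SE 0.104, adjusted p = 1.28e-144) than in knockout cells (log2 fold change -0.39, SE 0.088, adjusted p = 9.29e-05). *ORC4* (chr2:147930396-148021604), another subunit of the same complex, had 1088, 1021 and 1014 in untreated sgControl cells and 1079.8, 1024 and 1026 in abemaciclib. Its knockout libraries held 906, 1040.1 and 934 in DMSO and 1020.4, 866 and 925 in abemaciclib, so that treated and untreated values overlapped in both genotypes. The log2 fold change of *ORC4* in sgControl cells was 0.00, with a 95% interval of -0.15 to 0.16.

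The other ORC genes lay between these. *ORC6*, which is loosely bound to the rest of the complex, fell in sgControl cells (log2 fold change -0.92, SE 0.097, adjusted p = 3.56e-20) and in knockout cells (log2 fold change -0.52, SE 0.102, adjusted p = 4.83e-06). Its interaction was 0.40 (SE 0.141, adjusted p = 0.0129 by DESeq2), and it no longer passed without replicate 2 of the knockout cells in DMSO or without replicate 2 of those in abemaciclib, where the highest adjusted p was 0.054. *ORC2* changed by -0.10 (95% interval -0.25 to 0.06), *ORC3* by -0.25 and *ORC5* by -0.21 in sgControl cells, and the last 2 passed the test. *ORC5* also fell in knockout cells, by 0.32, and its interaction did not pass (adjusted p = 0.404 by DESeq2). *CDC6*, the ATPase that recruits the helicase to ORC, fell in both genotypes, with log2 fold changes of -1.28 in sgControl and -0.24 in knockout cells. *CDT1*, which brings the helicase along, fell by 1.05 in sgControl cells, and in knockout cells its value was 0.13 (adjusted p = 0.357 by DESeq2).

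Both genes that restrain licensing fell in sgControl cells. *DTL* (chr1:212035553-212107400) encodes the substrate receptor of the ubiquitin ligase that removes *CDT1* at forks. It had 8785, 9608 and 8748 normalised counts in untreated sgControl cells and 1577, 1458 and 1448 in abemaciclib, against 8058, 8001 and 7961 and 7538, 7321 and 7474 in knockout cells. The log2 fold change was -2.60 (SE 0.055) in sgControl cells and -0.10 (SE 0.053) in knockout cells, where it did not pass. *GMNN* (chr6:24774931-24786099), which encodes the *CDT1* inhibitor geminin, had 1649.5, 1373 and 1546 in untreated sgControl cells and 311, 269 and 311 in abemaciclib. Its knockout libraries held 1265, 1319.9 and 1396 in DMSO and 1177, 1037 and 1108 in abemaciclib, with no overlap between treatments in either genotype. The interaction was 2.10 for *GMNN* (SE 0.132) and 2.49 for *DTL* (SE 0.076).

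All 8 MCM genes fell in sgControl cells, over a wide range. *MCM10* (chr10:13161558-13211110), which helps the assembled helicase start and stays with the fork, had 2441, 2799 and 2619 normalised counts in untreated sgControl cells and 109, 144 and 142 in abemaciclib. That is a log2 fold change of -4.31 (SE 0.102), the largest of the 56 genes, and leaves 5.1% of the DMSO mean. It was also the gene that fell most in knockout cells, from 2119, 2185 and 2324 to 1155, 1240.3 and 1202 (log2 fold change -0.88, SE 0.079, adjusted p = 5.14e-27). *MCM3* (chr6:52264014-52284881), a subunit of the helicase ring, had the smallest change of the group. It had 7089.7, 7796 and 8060.3 in untreated sgControl cells and 3956, 4071 and 3798 in abemaciclib, which did not overlap (log2 fold change -0.96, SE 0.06, adjusted p = 1.7e-56), and 9083, 8979 and 9276 and 8362, 9082 and 8599 in knockout cells, which did.

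The remaining ring subunits fell in sgControl cells by log2 values of 1.87 for *MCM2*, 1.16 for *MCM4*, 1.40 for *MCM5*, 2.00 for *MCM6* and 2.18 for *MCM7*. In knockout cells, *MCM2*, *MCM5*, *MCM6* and *MCM7* fell too, by 0.27 to 0.43, while *MCM3* and *MCM4* did not pass. *MCM8*, a relative of the ring subunits that acts mainly in homologous recombination, fell by 1.06 in sgControl cells. In the annotation used here, 33.3% of the exon bases of *MCM8* are shared with another gene on the same strand, so that its reads may be split.

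Of the 9 genes that activate the helicase, 8 fell in sgControl cells and 1 rose. *CDC45* (chr22:19479457-19520612), which joins *MCM2* to *MCM7* and GINS in the active helicase, had 2728, 2572 and 2551 normalised counts in DMSO and 436, 412 and 463 in abemaciclib (log2 fold change -2.58, SE 0.079, adjusted p = 1.54e-234). In knockout cells it fell from 1911, 1973 and 2146 to 1497, 1354 and 1338 (log2 fold change -0.53, SE 0.073, adjusted p = 2.33e-11), again without overlap. *GINS4* (chr8:41529218-41545030), which encodes one of the 4 GINS subunits, went the other way. It had 2226, 2070.3 and 2084 in untreated sgControl cells and 2627, 2647 and 2495 in abemaciclib, every treated library above every untreated one (log2 fold change 0.28, SE 0.055, adjusted p = 1.11e-06). In knockout cells its values of 1956, 1995 and 1937 in DMSO and 2046, 1914 and 1924 in abemaciclib overlapped.

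The interaction for *GINS4* was -0.29 (SE 0.08, adjusted p = 0.00127 by DESeq2). With size factors taken from total counts, which put the median gene 0.132 lower on the log2 scale for this response, the rise was 0.15 and still passed, but the interaction was -0.15 and did not (adjusted p = 0.105). Exons of *GINS4* overlap genes on the opposite strand over 1276 of 5447 bases, and whether the authors counted by strand is not stated. Its partners *GINS1*, *GINS2* and *GINS3* fell in sgControl cells by 1.57, 2.29 and 0.86. Among the kinases and adaptors of this step, *TICRR* fell by 2.56, *CDC7* by 1.60, *TOPBP1* by 1.07 and *DBF4* by 0.97, and none of these 4 passed in knockout cells.

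**Figure D2:**
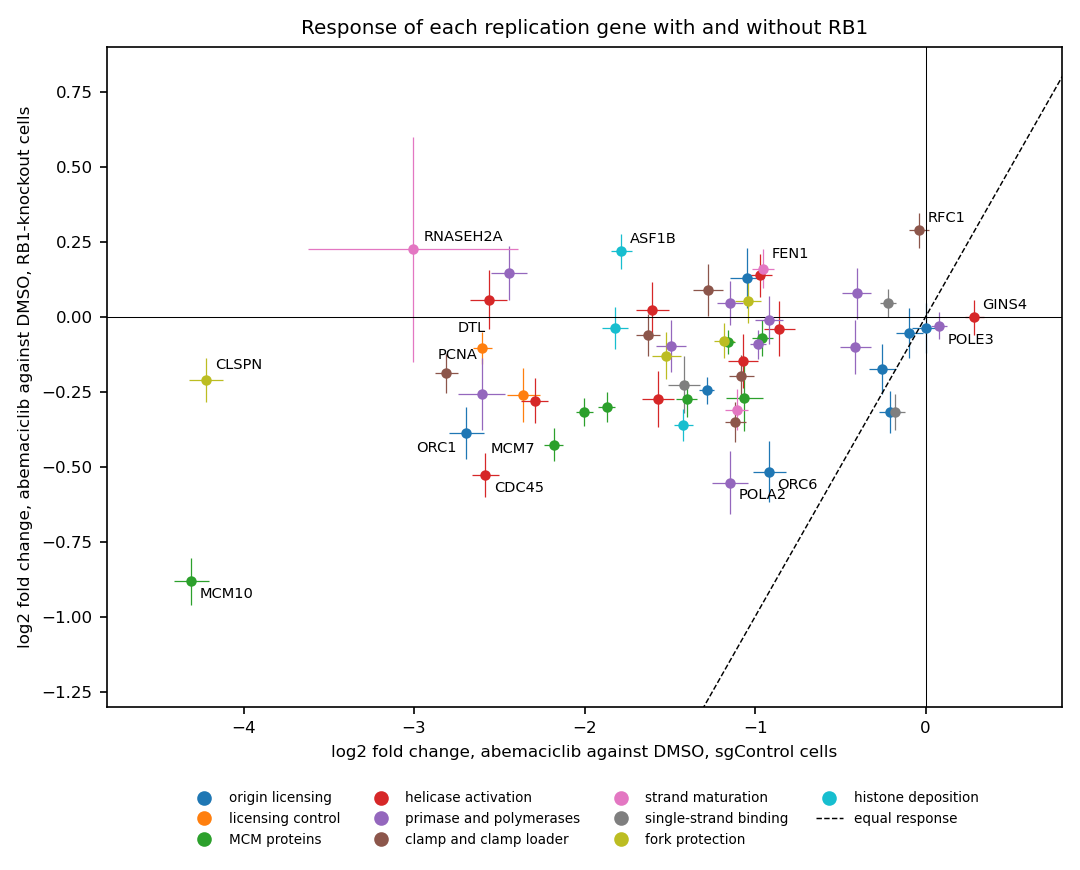
Each point is one of the 56 genes, placed by its log2 fold change after abemaciclib in sgControl cells (horizontal) and in *RB1*-knockout cells (vertical), with SE bars and colours for the roles. The axes have different scales, and the dashed line marks equal responses. Most points lie between -1 and -3 horizontally and close to 0 vertically, *MCM10* is lowest on both axes, and *ORC2* to *ORC5*, *RPA2*, *POLE3* and *GINS4* are near the line.

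The subunits of polymerase ε ranged from the largest fall among the polymerase and primase genes to no call at all. *POLE2* (chr14:49643555-49688422), the second subunit of this leading-strand enzyme, had 589, 570.2 and 475 normalised counts in untreated sgControl cells and 81.9, 92.1 and 93.4 in abemaciclib (log2 fold change -2.60, SE 0.139, adjusted p = 1.67e-76). In knockout cells it had 504, 554 and 484 and 459, 381 and 451, a change that did not pass (adjusted p = 0.0903 by DESeq2). *POLE3* (chr9:113407235-113410675), a small histone-fold subunit that also belongs to a chromatin remodelling complex, had 5676, 5351 and 5449.8 in untreated sgControl cells and 5797, 5750.1 and 5847 in abemaciclib. Its treated libraries were all above the untreated ones, yet the log2 fold change of 0.08 did not pass (95% interval -0.01 to 0.17). It did pass without sgControl replicate 1 in DMSO, at 0.10 with an adjusted p of 0.0487, and it turned to -0.05 with total-count factors. In knockout cells *POLE3* had 4601, 4731 and 4797 and 4463, 4632 and 4752, which overlapped.

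*POLE* itself, the catalytic subunit, fell in sgControl cells by 0.41 and had a value of 0.08 in knockout cells. The primase that starts each new strand showed a similar split, since *PRIM1*, its catalytic subunit, fell by 2.44 and *PRIM2*, its large subunit, by 0.92. Of the exon bases of *PRIM1*, 15.1% are shared with other genes on the same strand. *POLA1* and *POLA2* of polymerase α both fell by 1.15. In knockout cells *POLA2* fell by 0.55 and was the only one of the 10 polymerase and primase genes to pass, with 16.8% of its exon bases shared with another gene on the same strand. Of the lagging-strand polymerase δ, *POLD3* fell in sgControl cells by 1.49, *POLD1* by 0.98 and *POLD2* by 0.41. The interaction for *POLD2*, 0.31 (adjusted p = 0.0379 by DESeq2), failed in 8 of the 12 fits that left out one library, with values from 0.20 to 0.41 and adjusted p up to 0.101.

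The sliding clamp had a larger fold change in sgControl cells than any subunit of its loader. *PCNA* (chr20:5114953-5126626), the clamp that holds polymerases on DNA, had 9554, 8499 and 8165 normalised counts in untreated sgControl cells and 1249, 1174 and 1314 in abemaciclib. Its log2 fold change was -2.81 (SE 0.068), which leaves 14.3% of the DMSO mean. In knockout cells it had 8782, 8503 and 8586 in DMSO and 7672, 7602 and 7429.9 in abemaciclib, or 87.8% of the DMSO mean (log2 fold change -0.19, SE 0.065, adjusted p = 0.0152).

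*RFC1* (chr4:39287456-39366375), the large subunit of the loader that opens the clamp, had 3712, 4175 and 4236 in untreated sgControl cells and 4037, 3969 and 3810.0 in abemaciclib, which overlapped. The log2 fold change was -0.04, with a 95% interval of -0.15 to 0.08. In knockout cells *RFC1* rose, from 4544, 4309 and 4542 to 5482, 5499 and 5377 (log2 fold change 0.29, SE 0.059, adjusted p = 1.21e-05), the largest rise there among the 56 genes. The interaction also passed, at 0.33 (SE 0.084, adjusted p = 0.000372 by DESeq2). The smaller loader subunits *RFC2*, *RFC3*, *RFC4* and *RFC5* fell in sgControl cells by 1.08, 1.12, 1.28 and 1.63. In knockout cells *RFC2* fell by 0.20 and *RFC3* by 0.35, while *RFC4* and *RFC5* did not pass.

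Genes that finish the lagging strand all fell in sgControl cells. *RNASEH2A* (chr19:12806584-12813640), the catalytic subunit of an enzyme that removes RNA primers and misplaced ribonucleotides, was counted at very low levels. It had 16.8, 16.7 and 26.5 normalised counts in untreated sgControl cells and 4.3, 0 and 3.5 in abemaciclib, against 34.2, 32.0 and 26.1 and 37.4, 42.1 and 28.2 in knockout cells. The sgControl groups did not overlap, but the treated libraries held only 4, 0 and 4 counts before normalisation, and the log2 fold change of -3.01 had an SE of 0.616, the widest of the 56 genes. Its exons share 1095 of 2056 bases with *THSD8* on the same strand, so that its reads may be split between the genes.

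*FEN1* (chr11:61792911-61797238), the nuclease that trims primer flaps, had 5459, 4881 and 4676 in untreated sgControl cells and 2640.3, 2442 and 2666 in abemaciclib (log2 fold change -0.95, SE 0.066, adjusted p = 1.13e-46). In knockout cells it went from 4857, 5096 and 4848 to 5577, 5562 and 5402, every treated library being higher (log2 fold change 0.16, SE 0.065, adjusted p = 0.0466). That rise was close to the threshold. It was lost without any single knockout library, without sgControl replicate 2 in DMSO and without sgControl replicate 1 in abemaciclib, at 0.148 to 0.185 with adjusted p up to 0.156, and it also failed by edgeR (0.15, adjusted p = 0.15). *LIG1*, the ligase that seals the fragments, fell by 1.11 in sgControl cells and by 0.31 in knockout cells.

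**Figure D3:**
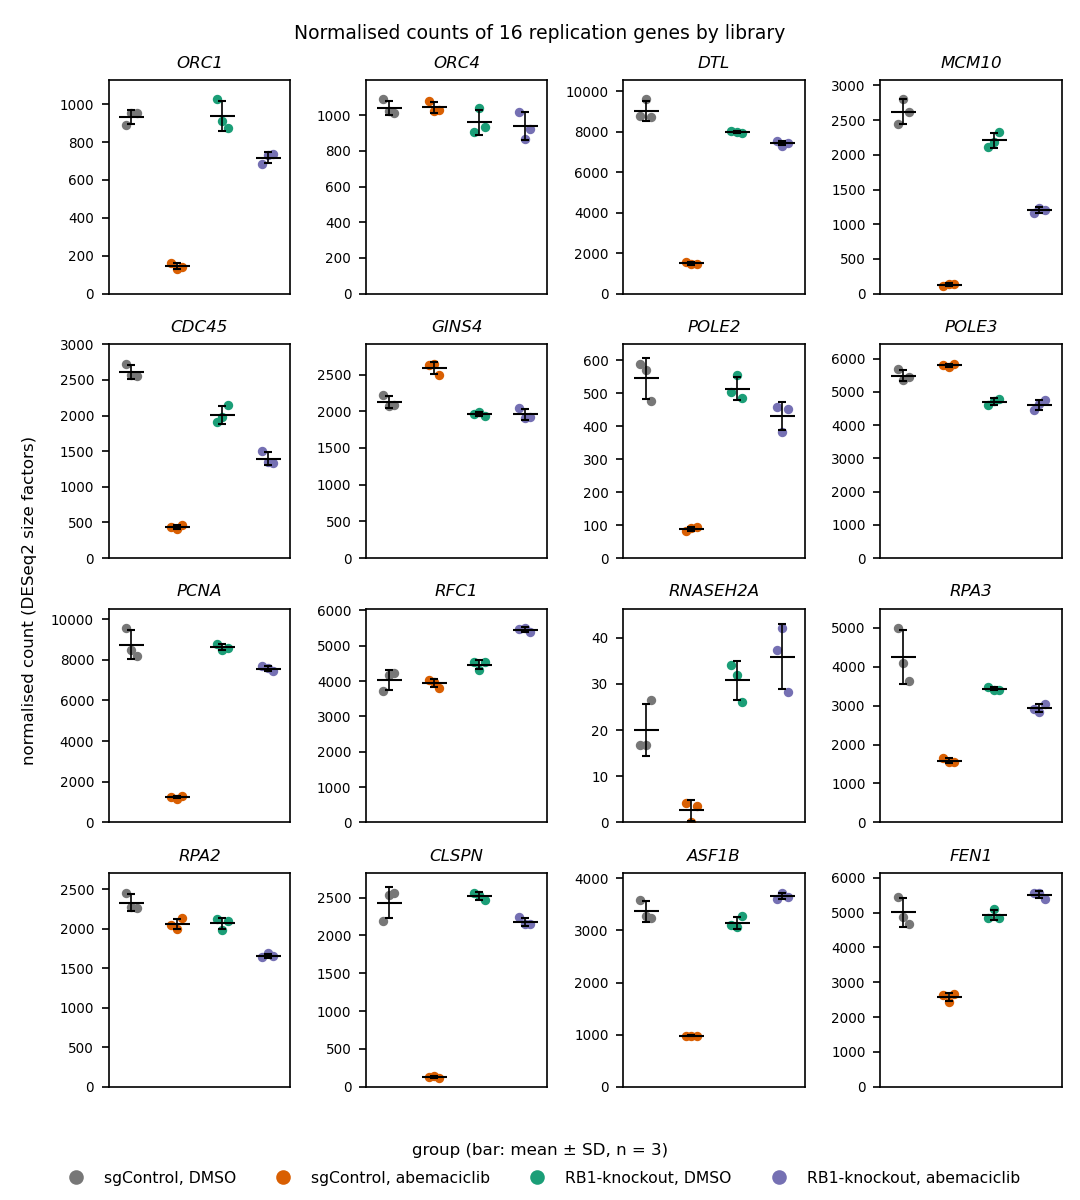
Normalised counts of 16 of the genes in each library, in 4 groups per panel, with the mean and SD of 3 libraries as black bars and each vertical axis starting at 0. *ORC1*, *DTL*, *MCM10*, *CDC45*, *POLE2*, *PCNA*, *RPA3*, *CLSPN*, *ASF1B* and *FEN1* have their lowest group in sgControl cells in abemaciclib, *ORC4* and *POLE3* show flat groups within each genotype, *GINS4* is highest in that same group, and *RNASEH2A* has counts under 50 throughout.

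The single-strand binding protein RPA was also uneven. *RPA3* (chr7:7636518-7718607), its smallest subunit, had 4989.6, 4104 and 3636 normalised counts in untreated sgControl cells and 1659.6, 1547 and 1560.1 in abemaciclib (log2 fold change -1.42, SE 0.095, adjusted p = 6.52e-49). In knockout cells it had 3478, 3408 and 3409 and 2912, 2842 and 3041, which did not overlap, with an adjusted p of 0.0541 by DESeq2. *RPA2* (chr1:27891524-27914746), the subunit that checkpoint kinases phosphorylate, had 2457, 2274 and 2259 in untreated sgControl cells and 2043, 1997 and 2129 in abemaciclib (log2 fold change -0.18, SE 0.057, adjusted p = 0.00445). It fell in knockout cells as well, from 2118, 1989 and 2091 to 1639.8, 1688 and 1648 (log2 fold change -0.32, SE 0.06, adjusted p = 1.57e-06). The interaction for *RPA2* did not pass, at -0.14 with a 95% interval of -0.30 to 0.03. *RPA1*, the large DNA-binding subunit, fell by 0.22 in sgControl cells and had a value of 0.05 in knockout cells.

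All 4 fork protection genes fell in sgControl cells. *CLSPN* (chr1:35720218-35769978), which encodes claspin, the adaptor that carries the checkpoint signal from ATR to CHK1, had 2193, 2531 and 2567 normalised counts in untreated sgControl cells and 132, 144 and 117 in abemaciclib. That leaves 5.4% of the DMSO mean (log2 fold change -4.22, SE 0.1), while the knockout libraries held 2555, 2541 and 2467 in DMSO and 2239, 2148 and 2150.5 in abemaciclib (log2 fold change -0.21, SE 0.074, adjusted p = 0.0178). Its interaction of 4.01 (SE 0.124) was the largest of the 56 genes. *WDHD1* (chr14:54938949-55027105), which links the helicase to polymerase α, changed least in this group, from 1972, 2239.5 and 2378 to 1100.3, 1069 and 1040.4 in sgControl cells (log2 fold change -1.04, SE 0.076, adjusted p = 6.1e-41). In knockout cells *WDHD1* had 2253, 2028 and 2077 and 2224, 2213 and 2154, which overlapped. *TIMELESS* and *TIPIN*, which form a pair that steadies the fork, fell in sgControl cells by 1.18 and 1.52. For *TIPIN*, 21.1% of the exon bases are shared with another gene on the same strand, so that its reads may be split.

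The histone chaperones that rebuild chromatin behind the fork fell together in sgControl cells and differed in knockout cells. *CHAF1B* (chr21:36385392-36419015), the middle subunit of the CAF-1 chaperone, had 1617, 1442 and 1616 normalised counts in untreated sgControl cells and 414, 462 and 445 in abemaciclib (log2 fold change -1.82, SE 0.077, adjusted p = 1.63e-120). In knockout cells its values of 2042, 2026 and 2147 and 1994, 2127 and 1943 overlapped. *CHAF1A* (chr19:4402640-4445018), the large subunit, fell in sgControl cells from 4839, 4533 and 4639.6 to 1817, 1730.4 and 1690.5 (log2 fold change -1.42, SE 0.056, adjusted p = 1.85e-142) and in knockout cells from 4567, 5037 and 4855 to 3761, 3789 and 3713 (log2 fold change -0.36, SE 0.054, adjusted p = 7.72e-10).

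*ASF1B* (chr19:14119512-14136613), which hands histones to CAF-1, passed in opposite directions in the genotypes. It had 3594, 3269 and 3230.4 in untreated sgControl cells and 982, 968 and 979.6 in abemaciclib (log2 fold change -1.78, SE 0.061, adjusted p = 1.74e-186), and it rose in knockout cells from 3096, 3059.6 and 3276 to 3613, 3728 and 3635 (log2 fold change 0.22, SE 0.058, adjusted p = 0.00101). Treated and untreated libraries did not overlap in either genotype, and the interaction was 2.00 (SE 0.084).

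Several of the falls in knockout cells depended on single libraries. *GMNN*, *GINS1*, *PCNA*, *RFC2* and *CLSPN* each lost the call in 4 or 5 of the 17 alternative fits, with adjusted p up to 0.108, and the number of genes that fell was 16 without knockout replicate 2 or 3 in abemaciclib and 17 without knockout replicate 1 or 3 in DMSO. It was 25 without sgControl replicate 1 in DMSO. A fit of only the knockout libraries lost no call of the main fit. It gained 7 calls, a rise for *CDT1* and falls for *DTL*, *MCM4*, *TOPBP1*, *POLD2*, *POLE2* and *RPA3*. These calls depended on which libraries shared the estimate of the spread. *MCM10*, *POLA2*, *CDC45*, *ORC6*, *MCM7*, *ORC1*, *CHAF1A* and *RFC3*, with the largest falls, kept theirs in every fit.

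In the solvent controls, the genotypes differed in 25 of these genes, mostly by small amounts, and *RFC3* alone differed by 2-fold or more. There, 10 of the 56 (17.9%) were higher in knockout cells, close to the 16.2% of all genes tested that were called higher, and 15 (26.8%) were lower, where 15.2% of all genes were. The higher ones were the licensing factor *CDT1* (0.41), the ring subunits *MCM2* to *MCM6* (0.20 to 0.36), *POLE* (0.34), *RFC2* (0.22), *TIPIN* (0.32) and *CHAF1B* (0.41). *MCM7* of the same ring was -0.14 (adjusted p = 0.046 by DESeq2), a call lost in 11 of 17 alternative fits. Calls of lower were also lost in some fits for *TIMELESS*, *ORC5*, *ORC2*, *RPA2*, *MCM10* and *ORC6*. The others were *RFC3*, *DBF4*, *MCM8*, *CDC45*, *RFC4*, *RPA3*, *POLE3* and *DTL*, at -0.18 to -1.09, which were lower in every fit. The number of genes called lower ranged from 11 to 15 over the fits that left out one library and was 10 when only the DMSO libraries were fitted.

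*RFC3* stood apart in this comparison. It lies on the long arm of chromosome 13 at chr13:33818069-33966558, the arm that also carries *RB1*, and had 2669, 2697 and 2720.2 normalised counts in untreated sgControl cells and 1264, 1233 and 1292 in knockout cells (log2 fold change -1.09, SE 0.063, adjusted p = 7.53e-65). In abemaciclib it had 1149, 1298 and 1277 in sgControl and 972, 1034 and 962 in knockout cells (log2 fold change -0.33, SE 0.066, adjusted p = 2.19e-06). The 145 other genes with a mean count of at least 100 between *RFC3* and the end of that arm had a median log2 difference of -0.69 in DMSO, with 93.8% of them below 0, and of -0.50 in abemaciclib, with 72.4% below 0. The 47 genes before *RFC3* on the same chromosome had a median of -0.03 in DMSO, and the 11259 genes on other chromosomes -0.01. These values move with the difference in *RFC3*, and their part in it was not tested.

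In abemaciclib, the genotypes differed in nearly all of these genes. Of the 56, 47 were higher in knockout cells, against 27.5% of all genes tested, and 6 were lower, against 26.4%. The number higher was 47 in all 17 alternative fits. The largest differences were 4.06 for *CLSPN*, 3.18 for *MCM10*, 2.7 for *TICRR*, 2.65 for *PRIM1* and 2.60 for *PCNA*. *RNASEH2A*, at 3.83 with a 95% interval of 2.63 to 5.03, cannot be placed among these at its low counts. Those lower in knockout cells were *GINS4* (-0.40), *RFC3* (-0.33), *POLE3* (-0.33), *RPA2* (-0.31), *ORC5* (-0.29) and *ORC2* (-0.21), and *ORC3*, *ORC4* and *ORC6* did not pass. The call for *ORC2* was lost without sgControl replicate 2 or 3 or without knockout replicate 1 or 2 in abemaciclib, at -0.24 to -0.16 over all fits that left out one library, and with total-count factors it was lost for *ORC2* (-0.09, adjusted p = 0.444) and *ORC5*. This comparison and the responses share libraries, so they are not independent of each other.

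Levels per length show what these changes did to the proportions of RNA between the subunit genes of a complex. Protein was not measured in these libraries. Values here are mean normalised counts per kb of merged exon. *PCNA* was the most abundant of the 56 genes per kb in sgControl cells in DMSO, at 6229 ± 516.7 (SD, n = 3), and was 10th in abemaciclib, at 887.8. *POLE3* went from 7th, at 2107, to 1st, at 2224. In polymerase ε, the ratio of the highest to the lowest subunit, *POLE3* to *POLE2*, was 11.4 in sgControl cells in DMSO and 73.4 in abemaciclib, and 10.3 and 12.1 in knockout cells. In ORC the ratio between highest and lowest went from 3.18 to 6.93 in sgControl cells as *ORC1* became the lowest subunit, against 3.12 and 3.59 in knockout cells. In RPA it went from 1.16 to 2.38, with *RPA3* lowest in abemaciclib, and from 1.4 to 1.8 in knockout cells. For RFC the ratio was 4.21 in DMSO and 5.23 in abemaciclib with *RB1* present, and 6.27 and 6.08 in the knockout. In GINS it went from 10.6 to 9.38 in sgControl cells, where *GINS4* took the place of *GINS2* as the highest subunit, and from 9.98 to 8.46 in knockout cells. For *MCM2* to *MCM7* the ratio was 2.59 in DMSO and 2.82 in abemaciclib in sgControl cells, with all 6 subunits lower, and 2.52 and 2.36 in knockout cells. These ratios are descriptions with no test, and they rest on annotated exon lengths, not on the transcripts that the cells use. Sources differ on whether the libraries cover whole transcripts or 3′ ends, and with 3′ ends these levels could not be compared between genes.

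**Figure D4:**
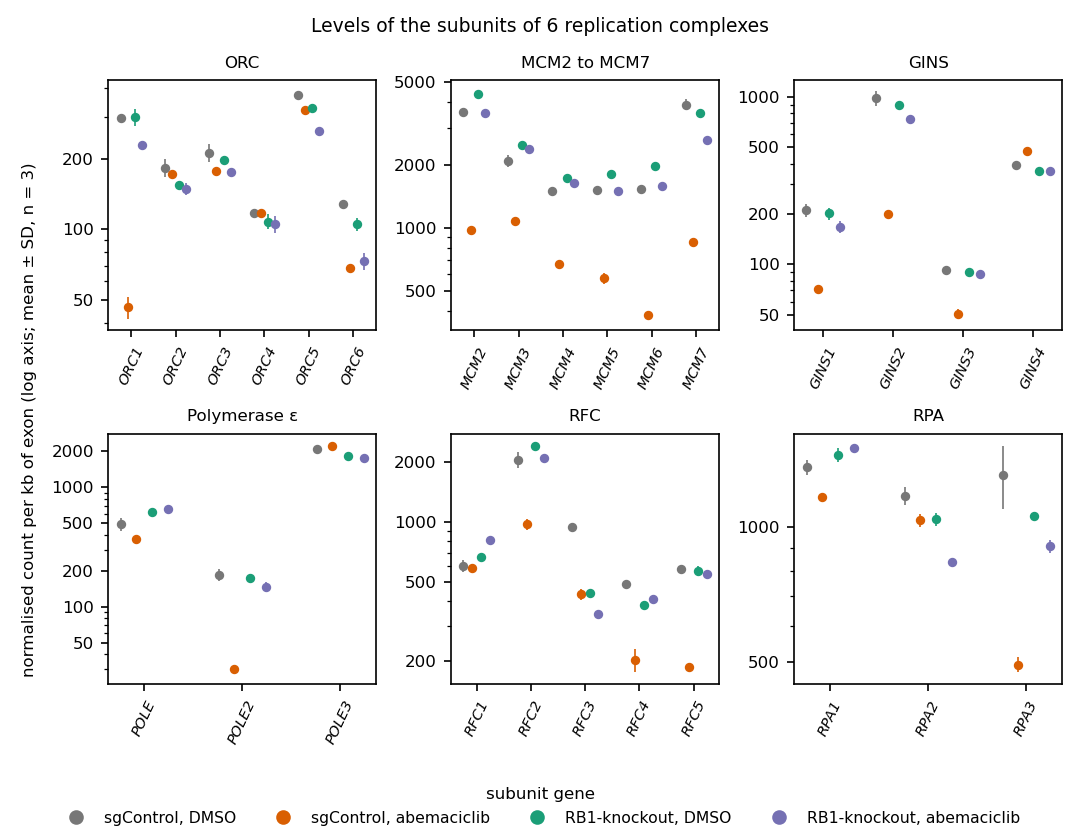
Mean normalised count per kb of merged exon, on a log axis, for the subunits of 6 complexes in the 4 groups, with SD over 3 libraries. The orange points, sgControl cells in abemaciclib, drop for *ORC1*, all of *MCM2* to *MCM7*, *GINS1* to *GINS3*, *POLE2*, *RFC2*, *RFC4*, *RFC5* and *RPA3*, and stay near the other groups for *ORC2* to *ORC5*, *GINS4*, *POLE3*, *RFC1* and *RPA2*. The orange point of *RFC3*, at 434.4, is below sgControl cells in DMSO but level with the knockout cells in DMSO, at 441.9.

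The promoters of these genes were examined for letters that the choice of genes did not use directly. Many of these genes are known E2F targets, so their share of E2F-type letters is not independent of that choice. RefSeq promoter windows (GRCh38.p14), from 250 bases before to 50 bases after an annotated start, were given for 50 of the 56 genes. An E2F-type motif was searched on both strands as TTTGGCGC or TTTCGCGC or TTTCCCGC or TTTGCCGC. It was found in a window of 24 of the 50 genes (48.0%), against 4.0% of all 27305 genes with a window and 6.9% of the 9320 genes with a mean normalised count of at least 100. CCAAT was found in 60.0% of the 50 genes and 43.8% of those 9320. The CHR-type motif, TTTGAA or TTCGAA, was found in 8.0% and 14.9%. The sites are shown for the 9 genes with the largest falls in sgControl cells among the 24 with a match. The site of *GMNN* lies in the second of the windows RefSeq gives for it, and the first holds none. Each line gives 30 bases on the strand of the gene, 5′ to 3′, and capitals mark the E2F-type letters of either strand, where matches on both strands can overlap.

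*CLSPN*, chr1:35769965-35769994, strand -: actctggctggGCGGGAAAgcaagaacagc
*PCNA*, chr20:5126663-5126692, strand -: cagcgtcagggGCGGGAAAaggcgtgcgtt
*POLE2*, chr14:49688201-49688230, strand -: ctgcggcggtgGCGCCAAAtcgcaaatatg
*DTL*, chr1:212035729-212035758, strand +: cgtgacgtcagTTTGGCGCggagtttggcg
*GMNN*, chr6:24775322-24775351, strand +: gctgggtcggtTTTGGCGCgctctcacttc
*GINS2*, chr16:85688967-85688996, strand -: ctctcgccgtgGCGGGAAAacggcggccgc
*MCM7*, chr7:100101566-100101595, strand -: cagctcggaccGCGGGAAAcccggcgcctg
*MCM7*, chr7:100101388-100101417, strand -: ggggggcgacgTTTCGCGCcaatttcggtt
*MCM6*, chr2:135876575-135876604, strand -: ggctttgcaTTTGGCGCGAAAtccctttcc
*MCM6*, chr2:135876513-135876542, strand -: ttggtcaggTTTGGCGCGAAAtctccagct
*MCM2*, chr3:127598404-127598433, strand +: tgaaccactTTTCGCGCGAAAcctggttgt

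In *CLSPN*, *POLE2*, *DTL* and the second *MCM7* line the letters shown begin within 10 bases before the annotated start, and in *MCM2* they begin at base 3 after it. *MCM6* holds 2 such sites, at 152 and 90 bases before the start, and each reads as a match on both strands. Its 250 bases before the start are given whole, with the same letters in capitals.

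*MCM6*, chr2:135876444-135876693, strand -: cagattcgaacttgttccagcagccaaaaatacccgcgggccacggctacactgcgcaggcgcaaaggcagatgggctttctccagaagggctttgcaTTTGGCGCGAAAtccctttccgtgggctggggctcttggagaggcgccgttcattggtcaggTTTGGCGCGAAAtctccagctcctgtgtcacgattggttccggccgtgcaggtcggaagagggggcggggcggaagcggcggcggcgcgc

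All 24 genes with a match fell in sgControl cells, with a median log2 fold change of -1.40, and 22 of the 26 genes without one fell, with a median of -1.06. The ranges overlapped widely, from -4.22 to -0.25 with a match and from -4.31 to 0.08 without. *MCM10*, *ORC1*, *CDC45* and *TICRR*, with some of the largest falls, had no match in their windows, and *ORC3*, with one of the smallest, did. A match is a run of letters and not a measured binding site. The search took exact runs only, so a gene without a match may still hold a variant of the motif.

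**Figure D5:**
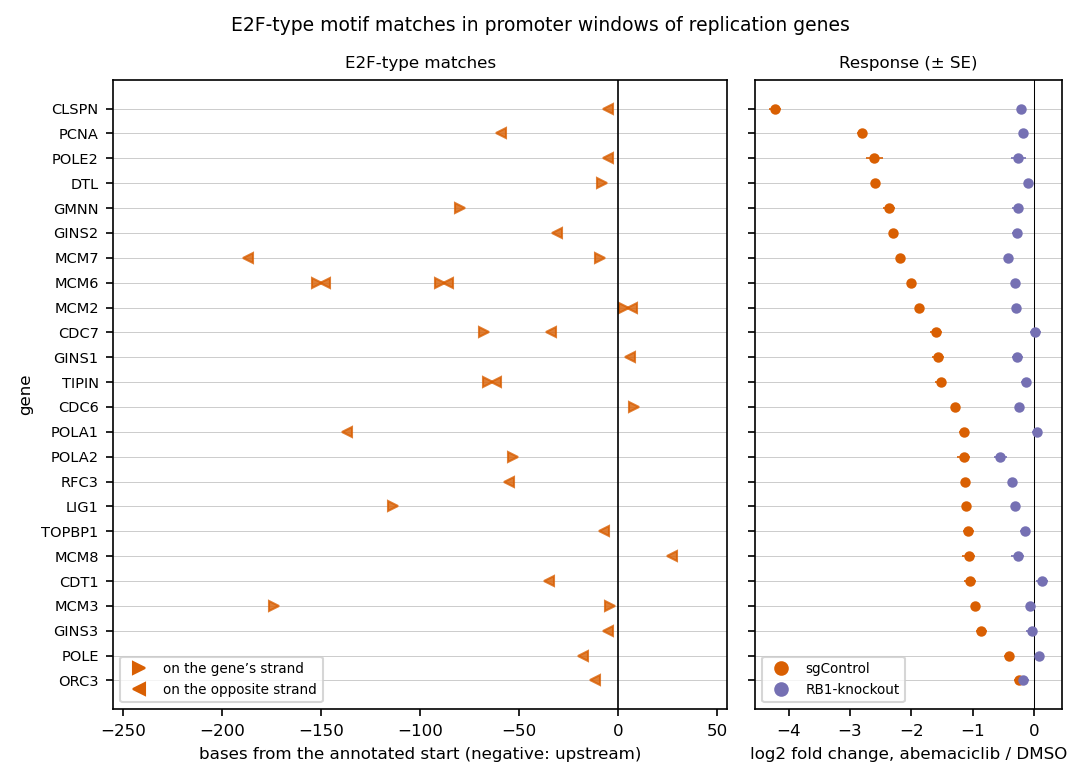
The left panel places each E2F-type match by its distance in bases from the annotated start, for the 24 genes that have one, with arrowheads for the strand. The right panel gives the log2 fold change after abemaciclib with SE in sgControl cells (orange) and *RB1*-knockout cells (purple), with genes ordered by the former, from *CLSPN* at -4.22 to *ORC3* at -0.25.

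Other replication genes moved in the same direction, less uniformly. Of 69 further genes with roles in fork stability, replication checkpoint, chromatin assembly and related steps, 46 fell, 7 rose and 16 did not pass in sgControl cells, with a median log2 fold change of -0.43, where 23.9% of all genes tested were called lower and 24.1% higher and the median was 0.01. The largest falls were in *TOP2A* (-4.03, SE 0.082), the topoisomerase that separates chromosomes, *EXO1* (-3.67, SE 0.069), a nuclease of mismatch repair, and *PCLAF* (-3.47, SE 0.151), a partner of *PCNA*. The largest rises were in *RAD18* (0.77, SE 0.064), the ubiquitin ligase that modifies *PCNA* at stalled forks, and *ZRANB3* (0.74, SE 0.121), a fork remodeller. They were followed by *CHTF8* (0.68, SE 0.283, adjusted p = 0.0353 by DESeq2), part of an alternative clamp loader. *CHTF8* was counted at low levels, with means of 39.3 normalised counts in sgControl cells in DMSO and 62.9 in abemaciclib. Overlaps of its exons with other genes were not examined. In knockout cells, 17 of the 68 that could be tested fell and 9 rose, against 15.1% and 15.0% of all genes tested. The interaction was higher for 38 of the 69 genes and lower for 7, against 21.0% and 20.2% of all genes tested.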

How the data were processed

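RNA-seq of 12 ZR-75-1 samples was used. The deposited values are counts per gene: the authors trimmed reads with BBDuk, aligned them to hg38 with STAR 2.7.5b and counted them with featureCounts 2.0.1 (versions per the submitters' processing notes) against a GENCODE annotation. The labels give a directional kit and the methods of the paper a 3′-end kit. Strand settings are not given in the sources used here. Under a 3′-end kit, levels per kb would not be comparable between genes.

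The table had 60656 rows, of which 44 without a gene name, holding 0% of counts when rounded, were left out; 28342 rows held no count. DESeq2 1.42.0 (R 4.3.3) was run once on the whole table, with group as the sole term and its default size factors, and 5 contrasts were tested by the two-sided Wald test. P-values were adjusted by Benjamini-Hochberg over all genes left by independent filtering, at 0.05. All adjusted p-values are from this fit unless edgeR 4.0.16 is named. Fold changes were not shrunk, SE is that of the fit and SD is over 3 libraries. The pipeline was also run on simulated counts with known changes in a small share of genes, balanced in direction. That run could not show how the size factors behave where many genes change, as in these data. Alternatives were edgeR with TMM, total-count factors, a filter of at least 10 counts in at least 3 samples, only the groups compared, a replicate block and leaving out each library.

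Nothing in the labels tells whether equal replicate numbers share a batch. Between genotypes in abemaciclib, deviations from the group means correlated weakly within each number (0.15, 0.26 and 0.11). That comparison was treated as possibly paired, which 3 libraries a group cannot establish. In the other comparisons at least one pair was not above 0.1. Replicates within a group differed beyond sampling noise.

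Members, roles and lists were chosen with earlier results of these data known. Values in every sample are given for the gene with the largest and the one with the smallest absolute fold change in sgControl cells in each of 10 roles, and for genes whose response passed against their role or in opposite directions in the genotypes. *RFC3* was added after its values were seen. Of the other replication genes, the 3 largest passing changes in each direction are named. Gene positions and exon lengths are from GENCODE release 44 (GRCh38), 1-based, the same build as the counts. Exons of 24 of the 56 genes overlap an opposite-strand gene and those of 10 a same-strand gene, and 10 genes have pseudogenes named after them (*DBF4*, *FEN1*, *ORC1*, *PCNA*, *POLD2*, *RFC3*, *RFC5*, *RPA2*, *RPA3* and *TIPIN*), so their counts may hold or lose reads of these. Figures were drawn with matplotlib 3.10.9.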

Additional observations from a re-analysis of the deposited data

Results flagged for a closer look

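The response to abemaciclib differed between genotypes for 50 of the 56 genes by the interaction term (DESeq2, adjusted p under 0.05), and each was therefore marked for a second look. The interaction was higher for 49 genes, where 21.0% of all genes tested were called, and lower for 1, where 20.2% were. Values are knockout minus sgControl responses on the log2 scale, so that a value above 0 is a smaller fall or a rise in *RB1*-knockout cells.

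Among origin licensing genes the differences were 2.31 for *ORC1*, 0.4 for *ORC6*, 1.04 for *CDC6* and 1.18 for *CDT1*. For the genes that restrain licensing they were 2.1 for *GMNN* and 2.49 for *DTL*. Every MCM gene passed, with 1.57 for *MCM2*, 0.89 for *MCM3*, 1.07 for *MCM4*, 1.13 for *MCM5*, 1.68 for *MCM6*, 1.76 for *MCM7*, 0.79 for *MCM8* and 3.43 for *MCM10*. The genes that switch on the helicase gave 2.05 for *CDC45*, 1.3 for *GINS1*, 2.01 for *GINS2*, 0.82 for *GINS3*, -0.29 for *GINS4*, 1.62 for *CDC7*, 1.11 for *DBF4*, 2.62 for *TICRR* and 0.93 for *TOPBP1*. Polymerase and primase genes gave 1.2 for *POLA1*, 0.59 for *POLA2*, 2.59 for *PRIM1*, 0.91 for *PRIM2*, 0.89 for *POLD1*, 0.31 for *POLD2*, 1.4 for *POLD3*, 0.48 for *POLE* and 2.35 for *POLE2*. For the clamp and its loader the values were 2.62 for *PCNA*, 0.33 for *RFC1*, 0.88 for *RFC2*, 0.76 for *RFC3*, 1.37 for *RFC4* and 1.57 for *RFC5*. Strand maturation genes had 1.11 for *FEN1*, 0.8 for *LIG1* and 3.23 for *RNASEH2A*. Of the RPA genes, the passing values were 0.27 for *RPA1* and 1.19 for *RPA3*. Fork protection genes had 4.01 for *CLSPN*, 1.1 for *TIMELESS*, 1.39 for *TIPIN* and 1.09 for *WDHD1*. The histone chaperones had 1.06 for *CHAF1A*, 1.79 for *CHAF1B* and 2 for *ASF1B*. *GINS4* was the only gene of the 50 with a value below 0, and its call was lost with total-count size factors. The calls for *ORC6* and *POLD2* were lost in some of the fits that left out a library. The value for *RNASEH2A* rests on very low counts. No group had enough libraries for a test of outlying samples, which needs at least 4.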

How the results depend on the processing

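The 235 single-gene fold changes reported here, and not those of every gene in every comparison, were each set against up to 17 alternatives. Of 3945 such checks, 3833 kept the direction and the side of the threshold, 85 lost the call, 20 gained one and 7 changed sign. Among these 235, the changes of sign were all in sgControl cells, and in genes that did not pass. *ORC4*, reported at 0.00, was -0.028 with edgeR, -0.129 with total-count factors, -0.019 in a fit of only the groups compared and between -0.019 and 0.034 over the fits that left out one library. *POLE3*, reported at 0.078, was -0.053 with total-count factors. The number of genes that rose in sgControl cells was 1 to 2 over the fits that left out one library, *POLE3* being added without sgControl replicate 1 in DMSO. The number with a lower interaction was 0 with total-count factors, against 1 (*GINS4*). All other counts of genes past the threshold stayed within 1.5 times the reported one. With the replicate block, the counts were 51 lower and 1 higher for sgControl cells and 1 lower and 49 higher for the interaction. They were 15 lower and 10 higher in DMSO and 6 lower and 47 higher in abemaciclib, where pairing by number was judged possible. No call of the 56 genes changed in these comparisons. In knockout cells the block gave 22 lower and 2 higher, since *FEN1* lost its call (adjusted p = 0.0571) and *RPA3* gained one. The cause of these changes was not tested.

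With 3 libraries a group, the SE of the log2 response in sgControl cells was 0.041 (*MCM4*) to 0.139 (*POLE2*) for 55 of the 56 genes and 0.616 for *RNASEH2A*, which sets how small a change could be called. Clone, genotype and chromosome 13 content cannot be separated by this design, and no library measures cell cycle phase.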
